A study of Mus musculus with 6 samples.

Results

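The genes described here are 44 genes of the cell cycle and of DNA replication, chosen by name for their function and followed through pancreatic islets of 3 mouse groups on Agilent 1-colour expression arrays. They comprise 12 cyclins and cyclin-dependent kinases (CDKs), 14 genes of DNA replication and nucleotide supply, 15 genes of mitosis, and a last set of 3 with the transcription factors E2f1 and Foxm1 and the proliferation marker Mki67. All 44 had a probe on the array, and 37 of them entered the test among 19021 genes in all. A gene entered where its probe was well above background on both arrays of at least 1 group, and 30 of the 44 were well above background on all 6 arrays.

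A cell that divides copies its DNA in S phase and separates the copies in mitosis. D-type cyclins with Cdk4 and Cdk6 release E2F transcription factors from the retinoblastoma protein, E2F turns on the genes of DNA replication, and the B-MYB-MuvB and FOXM1 complexes turn on the genes of mitosis later in the cycle. Adult beta cells are known to divide rarely, and Ccnd2 is the D-type cyclin on which their growth after birth is known to depend.

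All mice were males of ICR background at 16 weeks of age, and all carried floxed Trsp, the gene of the transfer RNA that inserts selenocysteine into selenoproteins. TrspFF mice (TrspFlox/Flox) were the controls, Trsp-RIPKO mice carried RIP-Cre (TrspFlox/Flox::RIP-Cre), and Trsp-Ins1KO mice carried Ins1-Cre (TrspFlox/Flox::Ins1-Cre), with 2 arrays a group. RIP-Cre is driven by a rat insulin promoter and is known to act in the hypothalamus as well as in beta cells, whereas Ins1-Cre acts in beta cells, and no group with Cre and without floxed Trsp was analysed here. No probe of the array carried the name Trsp, so the deletion could not be checked on these arrays. Whole islets were measured, so more cells of a type and more RNA per cell cannot be told apart.

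The name of each group rests on the scanner files, and the authors' table of processed values goes against it. Over 19486 probes, a table column named TrspFF held the values of a Trsp-Ins1KO scanner file (r = 1.0) and the reverse, while each Trsp-RIPKO column matched its own file. The sources used here do not settle which naming is right. All values below follow the scanner files, and the counts of the members under the other naming stand beside their counts in each comparison. For the other pathway genes and the cell markers no counts were taken under that naming. It would turn round their Trsp-Ins1KO against TrspFF differences as well. The 75th percentile of processed intensity lay at 122 and 111 for Trsp-Ins1KO and at 203 to 247 for the other 4 arrays. For Trsp-Ins1KO 52.2% and 51.4% of probes were well above background against 57.5% to 61.0% for the others. TrspFF and Trsp-Ins1KO shared slide 1, and Trsp-RIPKO was alone on slide 2, so a slide effect and the Trsp-RIPKO genotype cannot be told apart. Markers of the labelled tissue were present: all 10 beta-cell markers and all 8 markers of alpha, delta and PP cells were well above background on all 6 arrays, and Ins2, an insulin gene, had log2 levels of 10.12 to 11.11.

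The promoters of these genes are shown because the textbook control of replication genes and of mitosis genes runs through different letters. RefSeq promoter sequences on the GRCm38.p6 build, from 250 bases before to 50 bases after a gene's start, were found for 35 of the 44 genes and for 27025 genes in all. The letters TTTNNCGC, a core of the E2F site, were present on either strand in 8 of 13 replication promoters, 3 of 8 cyclin and CDK promoters and 0 of 12 mitosis promoters, against 5.3% of all promoters. The letters TTTGAA, known as the cell cycle genes homology region (CHR) and bound by MuvB complexes, were present in 9 of 12 mitosis promoters, 2 of 8 cyclin and CDK promoters and 1 of 13 replication promoters, against 18.1% of all promoters. CCAAT, a box bound by NF-Y, was present in 10 of 12 mitosis and 9 of 13 replication promoters, against 37.9% of all. These matches describe the letters, not binding, and no test was made. They are 3 of 10 patterns searched, kept after their shares were seen. The other 7 were TTTGGCGC (4 of 13 replication and 0 of 12 mitosis promoters, 0.5% of all), TTTCCCGC (3 and 0, 1.1%), TTTCGCGC (3 and 0, 0.3%), TTCCCGCC (3 and 0, 2.2%), TTGGCGCC (2 and 0, 0.8%), TTTGGCGG (0 and 0, 0.6%) and TTCGAA (1 and 3, 1.6%).

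Promoters of 3 replication genes are printed 5′ to 3′, each ending at the last base before the start. They were chosen for holding the E2F letters ahead of the start, which are in capitals, and overlapping matches on both strands run together in Mcm5 and Mcm6. They are Mcm5 at chr8:75109336-75109508 (plus strand), Mcm6 at chr1:128359706-128359835 (minus strand) and Uhrf1 at chr17:56303261-56303336 (plus strand).
Mcm5: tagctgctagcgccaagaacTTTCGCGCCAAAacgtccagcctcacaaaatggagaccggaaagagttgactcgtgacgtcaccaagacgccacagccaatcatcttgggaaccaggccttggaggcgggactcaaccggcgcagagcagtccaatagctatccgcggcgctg
Mcm6: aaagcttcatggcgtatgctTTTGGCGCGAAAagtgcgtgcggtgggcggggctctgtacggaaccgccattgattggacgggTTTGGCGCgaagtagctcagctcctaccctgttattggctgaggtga
Uhrf1: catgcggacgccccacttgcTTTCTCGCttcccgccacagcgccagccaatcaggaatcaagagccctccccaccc

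Promoters of 3 mitosis genes and of Mki67 were chosen for holding the CHR letters ahead of the start, here in capitals as TTTGAA or, on the other strand, TTCAAA. They are Cdc20 at chr4:118437344-118437381 (minus strand), Ube2c at chr2:164769880-164769928 (plus strand), Top2a at chr11:99024190-99024388 (minus strand) and Mki67 at chr7:135716380-135716515 (minus strand). Top2a and Mki67 each held 2 matches.
Cdc20: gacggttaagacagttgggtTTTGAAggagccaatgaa
Ube2c: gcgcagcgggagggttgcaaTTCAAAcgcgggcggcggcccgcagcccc
Top2a: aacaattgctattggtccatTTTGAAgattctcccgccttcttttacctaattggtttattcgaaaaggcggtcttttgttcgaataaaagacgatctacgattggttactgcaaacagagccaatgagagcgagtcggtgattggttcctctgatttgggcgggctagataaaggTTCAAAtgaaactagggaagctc
Mki67: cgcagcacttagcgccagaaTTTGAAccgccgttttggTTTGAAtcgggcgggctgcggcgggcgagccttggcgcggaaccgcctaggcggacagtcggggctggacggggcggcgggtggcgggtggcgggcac

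The promoter of Cdk1, the kinase that drives entry into mitosis, held both sets of letters, with 2 matches to the E2F letters and 2 to the CHR letters, all in capitals. It is Cdk1 at chr10:69352913-69353063 (minus strand).
Cdk1: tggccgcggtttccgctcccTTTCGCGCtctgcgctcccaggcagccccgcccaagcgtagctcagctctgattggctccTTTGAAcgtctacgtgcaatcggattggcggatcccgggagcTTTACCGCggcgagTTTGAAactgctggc

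In Trsp-RIPKO islets most of the tested cell-cycle genes were higher than in TrspFF islets. Of the 37, 23 rose, 1 fell and 13 did not pass the test, at an adjusted p under 0.05 (limma, Benjamini-Hochberg over all genes). The median difference was 0.71 on the log2 scale, against 0.00 over all genes, of which 18.9% rose and 17.5% fell. By role, 10 of 12 mitosis genes rose (median 0.86), as did 8 of 13 replication genes (0.69), 3 of 9 cyclins and CDKs (0.08), and 2 of the last 3 genes, and the gene that fell was Ccnd2. Bub1 and Top2a, 2 of these 10 mitosis genes, entered the test through the Trsp-RIPKO arrays alone. The count over all roles was therefore also taken over the 35 genes well above background on both TrspFF arrays, where 21 rose and 1 fell.

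The count for Trsp-RIPKO rested on the number of arrays. Fewer members, and fewer of all genes, were called higher without TrspFF replicate 1, TrspFF replicate 2, Trsp-RIPKO replicate 1 or Trsp-RIPKO replicate 2. The median difference of the members in these fits was 0.64, 0.74, 0.68 and 0.71, respectively, against -0.01, 0.00, 0.01 and -0.01 over all genes. The rises of Ccna2, Mcm3, Tk1, Top2a and Mki67 passed the test with any 1 array left out, Top2a among them having entered through Trsp-RIPKO alone. The calls of Ccnb2, Cdk1, Mcm6, Aurka, Bub1, Kif20a, Nusap1, Prc1, Tpx2 and E2f1 were each lost without any 1 of these 4 arrays, those of Ccnd2, Cdt1 and Birc5 without either TrspFF array or Trsp-RIPKO replicate 2, and that of Cdc20 without either TrspFF array. The calls of Mcm2, Mcm5 and Rrm2 were lost without TrspFF replicate 1, that of Ube2c without TrspFF replicate 1 or either Trsp-RIPKO array, and that of Uhrf1 without either Trsp-RIPKO array. With each array scaled to its median, 19 genes rose and 4 fell, while all genes split into 2013 higher and 7264 lower (3592 and 3329 in the main setting) and their median moved to -0.24, and under the table's own column names 18 rose and 4 fell. Scaling ended single calls too: with median scaling E2f1 read 0.25 (adjusted p = 0.12), Kif20a 0.35 (adjusted p = 0.059) and Aurka 0.33 (adjusted p = 0.174), and with quantile normalization Cdk1 read 0.74 (adjusted p = 0.105), Tpx2 0.31 (adjusted p = 0.069) and Aurka 0.49 (adjusted p = 0.074). Markers of other cells were also higher in Trsp-RIPKO islets. Called higher were 11 of 13 acinar, 10 of 11 fibroblast and stellate, and 5 of 9 endothelial markers. So were 4 of 5 intestinal epithelial markers, but Fabp1, Fabp2 and Lct were well above background on no TrspFF array. Of 10 beta-cell markers, 0 were called higher and 4 lower. The part of these cells in these results was not tested.

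In Trsp-Ins1KO islets fewer of the genes were called against TrspFF, with 10 higher, 3 lower and 24 that did not pass the test. The median difference was 0.11, against -0.01 over all genes, of which 23.0% rose and 23.0% fell, so the 10 of 37 that rose are near the share of all genes. Replication genes made up 5 of the 10 that rose (Mcm2, Mcm3, Mcm5, Cdt1 and Uhrf1), and the others were Ccnd1, Ccnd3, Tpx2, E2f1 and Foxm1. Ccnd2, Pcna and Tyms were lower. The calls of Ccnd2 and Cdt1 were lost on leaving out either TrspFF array, either Trsp-RIPKO array or Trsp-Ins1KO replicate 2, those of Ccnd3 and Pcna without either TrspFF array, that of Foxm1 without either TrspFF array or Trsp-Ins1KO replicate 1, and that of Tyms without TrspFF replicate 1. Under the table's own column names this contrast turns round, with 3 higher and 10 lower. Dim genes depended on the background correction: with normexp, which adds an offset of 50 to every spot, 27 genes were higher and 3 lower, while all genes split into 9189 higher and 4763 lower against 4371 and 4366 in the main setting. Under that setting the lowest level on an array lay at -1.84 and -1.75 for Trsp-Ins1KO and between -2.59 and -2.38 for the other arrays. Fibroblast and stellate markers were lower in Trsp-Ins1KO islets (9 of 11 called), while 9 of 13 acinar and 6 of 9 endothelial markers were higher. Of 10 beta-cell markers, 6 were higher and 2 lower. Of 5 hepatocyte markers 4 were called higher, but Alb and Cyp3a11 were well above background on no TrspFF array. Apob was well above background on no TrspFF or Trsp-Ins1KO array. The part of these cells in these results was not tested.

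**Figure D1:**
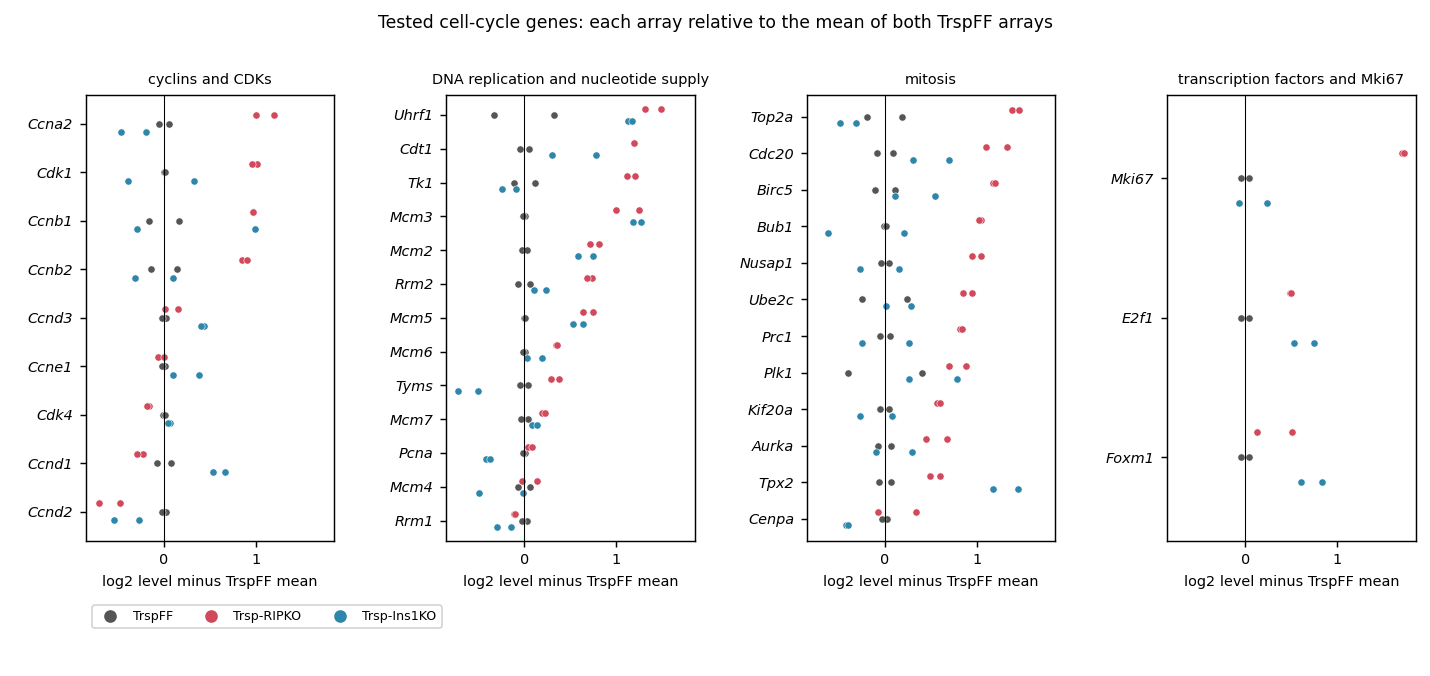
Level of each tested gene on each of the 6 arrays, in log2 units minus the mean of both TrspFF arrays, in 4 panels by role, with 1 point an array. Most Trsp-RIPKO points of the mitosis panel lie to the right of the TrspFF points, while the Trsp-Ins1KO points lie to the right for Mcm2, Mcm3, Mcm5, Uhrf1 and Tpx2.

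Mki67, whose protein is the proliferation antigen of dividing cells, had the largest fitted rise of the tested members in Trsp-RIPKO islets. Its log2 level, always given relative to the array's 75th percentile, read -0.40 and -0.32 in TrspFF islets, against 1.34 and 1.37 in Trsp-RIPKO islets and -0.12 and -0.43 in Trsp-Ins1KO islets. Both Trsp-RIPKO arrays stood apart from the other 4, which overlapped. The difference of Trsp-RIPKO from TrspFF was 1.71 (SE 0.12, adjusted p = 0.0033 by limma), a 3.27-fold change, and that of Trsp-Ins1KO from TrspFF was 0.08 (adjusted p = 0.60). A further Mki67 probe gave 1.17 and -0.59 for the same contrasts, so the probes differ in sign for Trsp-Ins1KO.

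E2f1, a transcription factor that turns on replication genes, was higher in both lines. It read -0.39 and -0.30 in TrspFF islets, against 0.14 and 0.15 in Trsp-RIPKO islets and 0.40 and 0.19 in Trsp-Ins1KO islets, with no overlap of either line with TrspFF. The differences from the shared TrspFF arrays were 0.49 (SE 0.094, adjusted p = 0.018, up to 0.107 without an array and 0.12 with median scaling) for Trsp-RIPKO and 0.64 (SE 0.094, adjusted p = 0.0062) for Trsp-Ins1KO. Foxm1, which turns on mitosis genes, read -3.44 and -3.52 in TrspFF islets, against -3.35 and -2.97 in Trsp-RIPKO islets and -2.65 and -2.87 in Trsp-Ins1KO islets. It rose by 0.72 in Trsp-Ins1KO islets (SE 0.15, adjusted p = 0.018, up to 0.085 without an array), whereas the difference of 0.32 in Trsp-RIPKO islets did not pass the test (adjusted p = 0.16).

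Of the D-type cyclins, which start the cycle with Cdk4 and Cdk6, Ccnd2 fell in both lines and Ccnd1 and Ccnd3 rose in Trsp-Ins1KO. Ccnd2 read 4.75 and 4.70 in TrspFF islets, against 4.25 and 4.02 in Trsp-RIPKO islets and 4.45 and 4.18 in Trsp-Ins1KO islets. It was below TrspFF on all 4 knockout arrays, by 0.59 in Trsp-RIPKO (SE 0.13, adjusted p = 0.024) and by 0.41 in Trsp-Ins1KO (adjusted p = 0.0499). With an array left out, the adjusted p for Ccnd2 reached 0.117 for Trsp-RIPKO and 0.179 for Trsp-Ins1KO. Ccnd1 was at 2.32 and 2.17, 2.02 and 1.95, and 2.91 and 2.78 for TrspFF, Trsp-RIPKO and Trsp-Ins1KO, an order kept from here on. It rose by 0.60 in Trsp-Ins1KO islets (SE 0.090, adjusted p = 0.0065), a call that passed with any 1 array left out, and its difference in Trsp-RIPKO was -0.26 (adjusted p = 0.076). Ccnd3 was at 2.85 and 2.81, 2.98 and 2.84, and 3.26 and 3.23. It rose by 0.42 in Trsp-Ins1KO islets (SE 0.076, adjusted p = 0.011, up to 0.071 without an array), and in Trsp-RIPKO islets the difference was 0.08 (adjusted p = 0.43). A further Ccnd3 probe gave 0.05 for Trsp-Ins1KO and -0.35 for Trsp-RIPKO.

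Of the later cyclins and their kinase, Ccna2, Ccnb2 and Cdk1 rose in Trsp-RIPKO islets, whereas Ccnb1 and Ccne1 did not pass the test. Ccna2, the cyclin of S phase and early mitosis, read -2.46 and -2.57 in TrspFF islets, against -1.51 and -1.32 in Trsp-RIPKO islets and -2.71 and -2.98 in Trsp-Ins1KO islets, with both Trsp-RIPKO arrays above the other 4. Its rise in Trsp-RIPKO was 1.10 (SE 0.13, adjusted p = 0.0073), and the difference of -0.33 in Trsp-Ins1KO did not pass the test (adjusted p = 0.085). Ccnb2, a mitotic cyclin, was at -1.83 and -2.11, -1.13 and -1.07, and -1.88 and -2.29. It rose by 0.88 in Trsp-RIPKO islets (SE 0.17, adjusted p = 0.019). Cdk1, the kinase that both cyclins bind, was at -3.87 and -3.86, -2.86 and -2.91, and -3.54 and -4.26, with both Trsp-RIPKO arrays above the other 4. It rose by 0.98 in Trsp-RIPKO islets (SE 0.23, adjusted p = 0.030), and a further Cdk1 probe gave 0.12 there and, on no Trsp-Ins1KO array well above background, read higher in Trsp-Ins1KO than in TrspFF. With 1 of the TrspFF or Trsp-RIPKO arrays left out, the adjusted p reached 0.089 for Ccnb2 and 0.124 for Cdk1.

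Ccnb1, the other B-type cyclin of mitosis, read -2.34 and -2.66 in TrspFF islets, against -1.53 and -1.53 in Trsp-RIPKO islets and -1.51 and -2.79 in Trsp-Ins1KO islets. The Trsp-Ins1KO arrays differed widely from each other, and the difference of 0.97 in Trsp-RIPKO (SE 0.42) did not pass the test (adjusted p = 0.124). Ccne1, a cyclin of the start of S phase, and Cdk4, the partner of the D-type cyclins, passed in neither line against TrspFF, with differences for Trsp-RIPKO of -0.03 and -0.17 and for Trsp-Ins1KO of 0.25 and 0.06. The probes of these genes did not all share a sign, since 2 further Cdk4 probes gave -0.12 and -0.20 for Trsp-Ins1KO, and a further Ccne1 probe, well above background on 1 TrspFF array, gave 0.33 for Trsp-RIPKO. Ccne2 and Cdk6 were well above background on no array, and Cdk2 on 1 Trsp-RIPKO array, so these 3 were not tested.

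Among the replication genes, several subunits of the MCM helicase, which unwinds DNA at the fork, were higher in both lines. Mcm3 read -2.64 and -2.66 in TrspFF islets, against -1.40 and -1.65 in Trsp-RIPKO islets and -1.38 and -1.47 in Trsp-Ins1KO islets. All 4 knockout arrays lay above TrspFF, by 1.13 in Trsp-RIPKO (SE 0.10, adjusted p = 0.0049) and by 1.22 in Trsp-Ins1KO (SE 0.10, adjusted p = 0.0021). Both calls for Mcm3 passed with any 1 array left out. Mcm2 was at -2.09 and -2.04, -1.36 and -1.26, and -1.32 and -1.49. It rose by 0.76 (SE 0.088, adjusted p = 0.0074) and by 0.66 (adjusted p = 0.0050). Mcm5 was at -2.42 and -2.40, -1.67 and -1.78, and -1.77 and -1.88, again with no overlap between TrspFF and either line. It rose by 0.69 (SE 0.078, adjusted p = 0.0073) and by 0.59 (adjusted p = 0.0051). Without TrspFF replicate 1 the adjusted p for Trsp-RIPKO was 0.057 for both Mcm2 and Mcm5.

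Of the other helicase subunits, Mcm6 alone was called, in Trsp-RIPKO. Mcm6 read 1.06 and 1.04 in TrspFF islets, against 1.39 and 1.40 in Trsp-RIPKO islets and 1.24 and 1.08 in Trsp-Ins1KO islets. It rose by 0.34 in Trsp-RIPKO islets (SE 0.080, adjusted p = 0.029), a call lost with any 1 TrspFF or Trsp-RIPKO array left out (adjusted p up to 0.134) and with median scaling (0.11, adjusted p = 0.44). Mcm7 differed by 0.21 in Trsp-RIPKO and 0.11 in Trsp-Ins1KO, and Mcm4 by 0.06 and -0.26, none of which passed the test. Cdt1, which loads the helicase onto DNA, was at -2.35 and -2.45, -1.21 and -1.21, and -2.10 and -1.62. Trsp-RIPKO was highest and Trsp-Ins1KO lay between, with rises of 1.19 (SE 0.16, adjusted p = 0.0098) and 0.54 (adjusted p = 0.046) over TrspFF. With an array left out, these adjusted p values reached 0.060 and 0.168, and with the replicate number as a block the latter was 0.060. Cdc6, which loads the helicase with Cdt1, was well above background on no array.

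Uhrf1, which maintains DNA methylation at the fork, was higher in both lines. It read -2.68 and -3.33 in TrspFF islets, against -1.52 and -1.69 in Trsp-RIPKO islets and -1.88 and -1.84 in Trsp-Ins1KO islets. The rises were 1.40 (SE 0.22, adjusted p = 0.012) and 1.15 (SE 0.22, adjusted p = 0.013), and the TrspFF arrays differed from each other more than the knockout arrays did. The call for Uhrf1 in Trsp-RIPKO was lost without either Trsp-RIPKO array (adjusted p up to 0.058). Pcna, the sliding clamp of the replication fork, was lower in Trsp-Ins1KO islets, at 1.94 and 1.92, 1.97 and 2.01, and 1.51 and 1.56. It fell by 0.39 in Trsp-Ins1KO islets (SE 0.065, adjusted p = 0.0082, up to 0.064 without 1 TrspFF array), and its difference of 0.06 in Trsp-RIPKO did not pass the test (adjusted p = 0.49).

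Enzymes of nucleotide supply differed among themselves. Tk1, the thymidine kinase of S phase, read -2.88 and -3.11 in TrspFF islets, against -1.80 and -1.88 in Trsp-RIPKO islets and -3.09 and -3.24 in Trsp-Ins1KO islets. Its rise in Trsp-RIPKO was 1.16 (SE 0.11, adjusted p = 0.0051) and passed with any 1 array left out. Rrm2, the subunit of ribonucleotide reductase that varies over the cycle, was at -0.41 and -0.28, 0.39 and 0.34, and -0.11 and -0.24. It rose by 0.71 in Trsp-RIPKO islets (SE 0.087, adjusted p = 0.0081, and 0.059 without TrspFF replicate 1). Rrm1, the other subunit of the reductase, passed in neither line, with differences of -0.11 and -0.22. Tyms, which makes thymidylate, was at -3.64 and -3.73, -3.31 and -3.40, and -4.19 and -4.41, and was well above background on no Trsp-Ins1KO array. It was called lower in Trsp-Ins1KO than in TrspFF islets (adjusted p = 0.0080, and 0.056 without TrspFF replicate 1), but the TrspFF level lay too near the background of the Trsp-Ins1KO arrays for a fold. With normexp the same contrast was 0.40 higher, so its direction depends on the background correction. The TrspFF to Trsp-RIPKO difference of Tyms, 0.33, did not pass the test (adjusted p = 0.055).

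**Figure D2:**
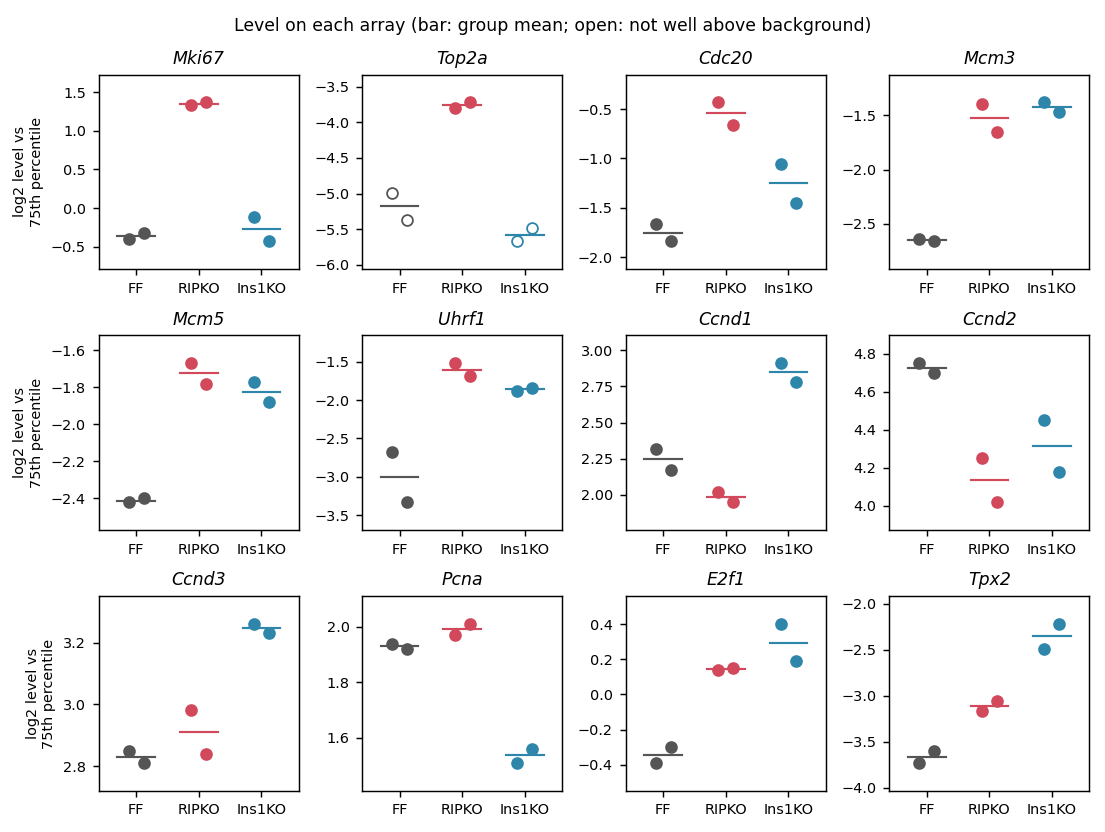
Log2 level relative to the array's 75th percentile of 12 genes on each array, with 1 point an array, a bar at the group mean and open points for probes not well above background. Mki67 stands apart in Trsp-RIPKO, Mcm3, Mcm5 and E2f1 are higher in both lines, and Ccnd1, Ccnd3 and Pcna differ in Trsp-Ins1KO. Top2a entered the test through Trsp-RIPKO alone.

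Of the 12 mitosis genes tested, 10 rose in Trsp-RIPKO islets, with Top2a and Bub1 counted among them. Top2a, the topoisomerase that untangles chromosomes, read -4.99 and -5.37 in TrspFF islets, against -3.80 and -3.72 in Trsp-RIPKO islets and -5.67 and -5.49 in Trsp-Ins1KO islets, and was well above background on the Trsp-RIPKO arrays alone. For such a gene a fold is given as a bound. Each dim-group reading below its array's lowest signal flagged well above background, over all probes, was raised to that signal. Other dim-group readings were kept. The bound is the fold between the mean log2 level of the bright group and that of these readings. Top2a was at least 1.52-fold higher in Trsp-RIPKO than in TrspFF islets (adjusted p = 0.0062 by limma). Bub1, a kinase of the spindle checkpoint, was at -4.49 and -4.46, -3.43 and -3.45, and -5.09 and -4.27. It too was well above background on the Trsp-RIPKO arrays alone, and was at least 1.90-fold higher there than in TrspFF islets (adjusted p = 0.036, up to 0.137 without 1 array). Since Top2a and Bub1 passed the filter through the group where they are high, their calls support nothing further.

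Cdc20, the activator of the anaphase-promoting complex, read -1.67 and -1.84 in TrspFF islets, against -0.43 and -0.66 in Trsp-RIPKO islets and -1.06 and -1.45 in Trsp-Ins1KO islets. It rose by 1.21 in Trsp-RIPKO islets (SE 0.16, adjusted p = 0.0095). The Trsp-Ins1KO arrays lay between, and their difference of 0.50 from TrspFF did not pass the test (adjusted p = 0.055). Birc5, which holds the chromosomal passenger complex with Aurkb, was at -0.85 and -1.06, 0.22 and 0.24, and -0.41 and -0.85. It rose by 1.18 in Trsp-RIPKO islets (SE 0.16, adjusted p = 0.0099). Its 2 further probes were well above background on the Trsp-RIPKO arrays alone, so their higher readings there support nothing further. Ube2c, the ubiquitin-conjugating enzyme of the anaphase-promoting complex, was at -2.88 and -2.39, -1.69 and -1.78, and -2.62 and -2.35, and rose by 0.89 (SE 0.19, adjusted p = 0.023), with 0.65 on a further probe. With an array left out the adjusted p reached 0.056 for Cdc20, 0.058 for Birc5 and 0.091 for Ube2c.

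Nusap1, Prc1 and Kif20a rose in Trsp-RIPKO islets as well. Nusap1, a spindle protein, read -3.36 and -3.44 in TrspFF islets, against -2.36 and -2.45 in Trsp-RIPKO islets and -3.67 and -3.25 in Trsp-Ins1KO islets, and rose by 0.99 in Trsp-RIPKO (SE 0.15, adjusted p = 0.012). Prc1, which bundles microtubules in the midzone, was at -1.71 and -1.82, -0.95 and -0.92, and -1.50 and -2.01, and rose by 0.83 (SE 0.17, adjusted p = 0.023). Kif20a, a kinesin of cytokinesis, was at -2.55 and -2.65, -2.03 and -2.0, and -2.87 and -2.52, and rose by 0.59 (SE 0.13, adjusted p = 0.026, and 0.059 with median scaling). For each of the 3 the Trsp-RIPKO arrays lay above all other arrays, and none passed against TrspFF in Trsp-Ins1KO islets. With an array left out the adjusted p reached 0.067 for Nusap1, 0.104 for Prc1 and 0.119 for Kif20a.

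Tpx2, which activates the mitotic kinase Aurka, was the mitosis gene called higher in both lines, on the brighter of its probes. It read -3.73 and -3.60 in TrspFF islets, against -3.17 and -3.06 in Trsp-RIPKO islets and -2.49 and -2.22 in Trsp-Ins1KO islets, a rise of 0.55 (SE 0.12, adjusted p = 0.023) and of 1.31 (SE 0.12, adjusted p = 0.0023). In Trsp-RIPKO the adjusted p reached 0.121 without an array. A further Tpx2 probe was well above background on the Trsp-RIPKO arrays alone, so the order of the lines depends on the probe. That probe gave 0.11 for Trsp-Ins1KO against TrspFF, on readings not well above background in either group. The rise in Trsp-Ins1KO therefore rests on the brighter probe. Aurka itself was at -1.50 and -1.64, -1.12 and -0.89, and -1.27 and -1.67, and rose by 0.57 in Trsp-RIPKO islets (SE 0.16, adjusted p = 0.049, up to 0.193 without 1 array), a call also lost with median scaling, quantile normalization, no filter, the mean over probes and the replicate block (adjusted p = 0.069). Plk1, another mitotic kinase, was at -3.00 and -2.19, -1.90 and -1.72, and -1.81 and -2.33, and passed in neither line (0.79 and 0.53, SE 0.31). Cenpa, the histone of the centromere, entered through TrspFF and differed by 0.13 and -0.41, which did not pass. Aurkb, Bub1b and Kif11 were well above background on no array.

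**Figure D3:**
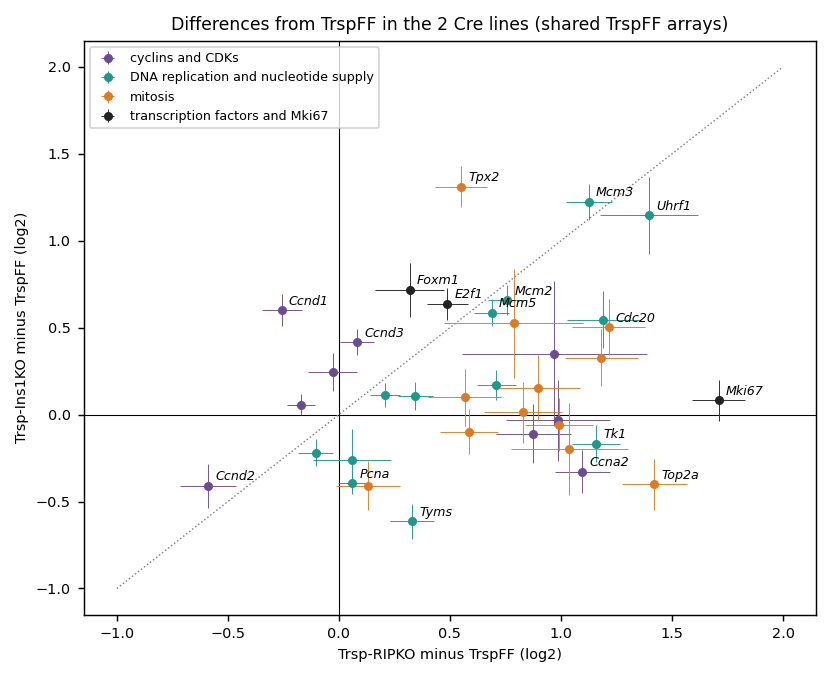
Difference of each tested gene from TrspFF in Trsp-RIPKO (horizontal axis) and in Trsp-Ins1KO (vertical axis), in log2 units with standard errors, coloured by role; both axes share the TrspFF arrays, and the dotted line marks equal differences. Mcm2, Mcm3, Mcm5 and Uhrf1 lie near the line, whereas Mki67, Tk1 and Ccna2 lie far to the right of it. Top2a also lies there, but entered the test through Trsp-RIPKO alone.

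The knockout lines were compared directly, with no TrspFF array in the difference. Of the 37 genes, 18 were lower in Trsp-Ins1KO than in Trsp-RIPKO islets, 4 were higher and 15 did not pass the test, with a median difference of -0.47 against -0.01 over all genes, of which 19.4% were lower and 19.3% higher. Mitosis genes made up 9 of the 18 that were lower (9 of 12 tested, median -0.73), and replication genes 5 (5 of 13, median -0.25). The 9 mitosis genes include Bub1 and Top2a, which entered through Trsp-RIPKO alone. Over the 30 genes well above background on all 6 arrays, 11 were lower and 4 higher. Under the table's own column names 23 were lower and 1 higher. With normexp 9 were lower and 11 higher, while all genes split into 3773 lower and 8322 higher against 3696 and 3669 in the main setting, so the direction of the dim genes in this comparison depends on the background correction. With median scaling 16 were lower and 6 higher, while all genes split into 2351 lower and 5702 higher. Without Trsp-RIPKO replicate 1 and without replicate 2, respectively, the median difference of the members was -0.51 and -0.41. Fewer members, and fewer of all genes, were called lower in these fits.

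Mki67 differed between the lines by -1.63 (SE 0.12, adjusted p = 0.0015), with -1.34 under normexp and -1.77 on its further probe. Rrm2 was lower by 0.54 (SE 0.087, adjusted p = 0.0093) and Pcna by 0.45 (SE 0.065, adjusted p = 0.0066). Mki67, Rrm2 and Pcna, and also Ccnd1, which was higher by 0.86 (SE 0.090, adjusted p = 0.0032), kept their calls with any 1 array left out and in all other alternatives apart from the table's own column names. The remaining calls each missed the threshold, or turned, in at least 1 alternative.

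Among the calls that were lower in both settings, Ccnb2 was lower in Trsp-Ins1KO by 0.98 (adjusted p = 0.011), Birc5 by 0.85 (adjusted p = 0.015), Prc1 by 0.82 (adjusted p = 0.020) and Cdc20 by 0.71 (adjusted p = 0.024), and all 4 passed under normexp too. Without either Trsp-RIPKO array each call was lost, with adjusted p up to 0.059, 0.070, 0.088 and 0.108, and that of Cdc20 also without Trsp-Ins1KO replicate 2. Ccna2 was lower by 1.42 (adjusted p = 0.0023), Tk1 by 1.33 (adjusted p = 0.0019) and Cdt1 by 0.65 (adjusted p = 0.032), and these did not pass under normexp (-0.16, -0.08 and -0.16). Tk1 was well above background on 1 of the Trsp-Ins1KO arrays, and the call of Cdt1 was lost on leaving out either TrspFF array or either Trsp-RIPKO array (adjusted p up to 0.116).

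For the dimmest genes the direct comparison gave bounds or no fold. Nusap1, well above background on no Trsp-Ins1KO array, was at least 2.01-fold higher in Trsp-RIPKO (adjusted p = 0.0070), Tyms at least 1.10-fold (adjusted p = 0.0033) and Bub1 at least 1.03-fold (adjusted p = 0.020), and no fold can be given for Top2a (adjusted p = 0.0019). Cdk1, measured on 1 Trsp-Ins1KO array, was lower there by 1.02 (adjusted p = 0.025), Ube2c by 0.74 (adjusted p = 0.032) and Kif20a by 0.68 (adjusted p = 0.014). Cenpa (adjusted p = 0.036) was well above background on 1 Trsp-RIPKO and no Trsp-Ins1KO array, so no fold is given. Without either Trsp-RIPKO array the calls of Bub1, Cdk1, Kif20a and Ube2c were lost (adjusted p up to 0.128), that of Cdk1 also without either TrspFF array and that of Ube2c without Trsp-Ins1KO replicate 1, and that of Cenpa without any array but Trsp-RIPKO replicate 1. Under normexp these 8 genes read higher in Trsp-Ins1KO, from 0.015 for Ube2c to 0.42 for Cenpa.

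The genes higher in Trsp-Ins1KO were 3 of the start of the cycle and Tpx2. Besides Ccnd1, Ccnd3 was higher in Trsp-Ins1KO by 0.34 (SE 0.076, adjusted p = 0.024), Cdk4 by 0.23 (SE 0.063, adjusted p = 0.040) and Tpx2 by 0.76 (SE 0.12, adjusted p = 0.0083). Cdk4 read 3.37 and 3.40 in TrspFF islets, against 3.22 and 3.20 in Trsp-RIPKO islets and 3.45 and 3.43 in Trsp-Ins1KO islets, and its call was lost without any 1 of the 6 arrays (adjusted p up to 0.129) and with the replicate block (0.062). Ccnd3 missed the threshold without 5 of the 6 arrays (adjusted p up to 0.093), all but Trsp-RIPKO replicate 1. Tpx2 turned to -0.36 when its probes were averaged. The MCM genes that rose in both lines had direct differences of 0.10 for Mcm3, -0.10 for Mcm2 and -0.10 for Mcm5 with SEs of 0.10, 0.088 and 0.078, none past the test.

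**Figure D4:**
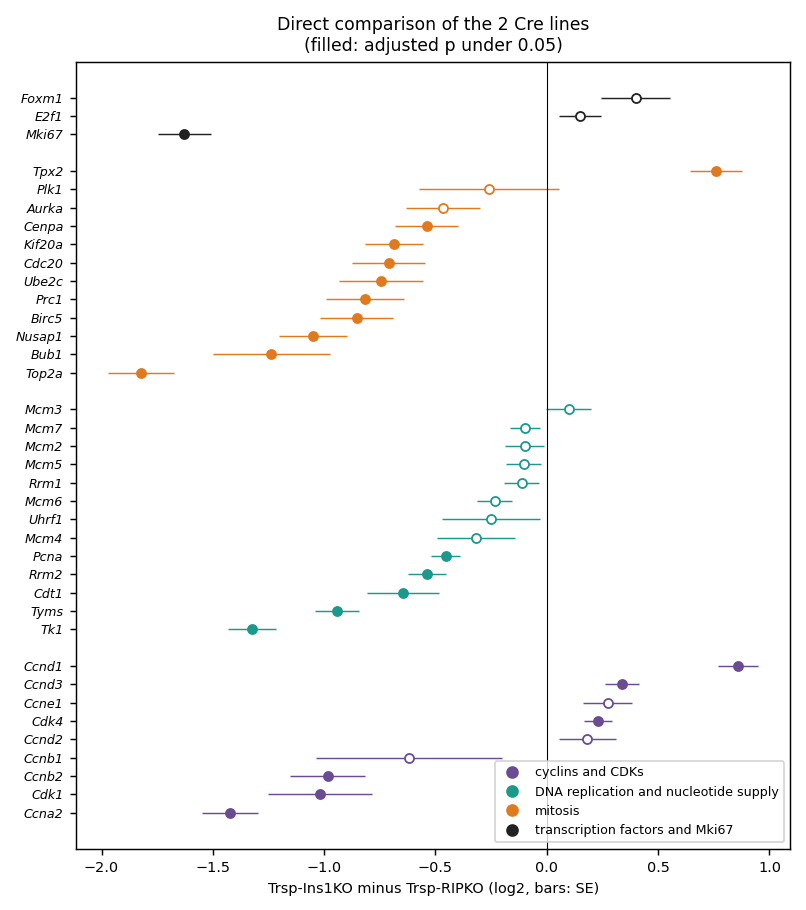
Difference of Trsp-Ins1KO minus Trsp-RIPKO for each tested gene, in log2 units with standard errors, grouped by role; filled points passed an adjusted p of 0.05. Most mitosis genes lie left of 0, and Mcm2, Mcm3 and Mcm5 lie near 0.

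Other genes of the pathway, 125 in 5 lists, were read beside the members. Of 98 tested, 35 rose and 5 fell in Trsp-RIPKO against TrspFF islets (median 0.30), 18 rose and 21 fell in Trsp-Ins1KO (median -0.08), and 10 were higher and 43 lower in Trsp-Ins1KO than in Trsp-RIPKO (median -0.37). Over all genes 18.9% rose and 17.5% fell in Trsp-RIPKO, and 23.0% each way in Trsp-Ins1KO. Taken over the 5 lists together, the Trsp-Ins1KO counts lie near or below the share of all genes. Between the lines, 19.3% of all genes were higher and 19.4% lower in Trsp-Ins1KO. The 51 further mitosis genes, 30 of them tested, had 17 higher and 1 lower in Trsp-RIPKO against TrspFF. Of the 32 further replication genes, 29 were tested, with 9 higher and 1 lower. Of the E2F family and MuvB, 5 of 14 tested rose and 0 fell by limma, and of the phosphatases, kinases and ubiquitin ligases of the cycle 2 of 15 rose and 2 fell. In Trsp-Ins1KO against TrspFF, 3 of the 30 further mitosis genes were higher and 11 lower (median -0.29). Aspm, 1 of those lower, was well above background on no Trsp-Ins1KO array. For the replication genes the counts there were 5 higher and 4 lower, for the E2F family and MuvB 4 and 0, and for the phosphatases, kinases and ligases 2 and 3. The counts of these lists, also between the lines, include genes that entered through Trsp-RIPKO alone, such as E2f8 and Prim2. The filter favours such genes where they are high in Trsp-RIPKO, and no count without them was taken.

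The 5 called genes with the highest fitted differences in Trsp-RIPKO, given in no order of size because 4 of them entered the test through Trsp-RIPKO alone and rest on TrspFF readings not well above background, were E2f8, a repressor among the E2F factors (at least 2.82-fold higher), Melk, a mitotic kinase (at least 2.15-fold), Ndc80, which ties kinetochores to microtubules (1.86 on the log2 scale), Prim2, a primase subunit (at least 1.83-fold), and Ska1, another kinetochore protein (at least 1.90-fold). Ndc80 read -2.75 and -2.35 in TrspFF islets, against -0.61 and -0.76 in Trsp-RIPKO islets and -2.93 and -2.88 in Trsp-Ins1KO islets, with both Trsp-RIPKO arrays above the other 4. In Trsp-Ins1KO against TrspFF they were Pttg1, the securin (2.47), Cdkn1a (1.37), Shcbp1 (lower, with no fold to give), Cdk7, the CDK-activating kinase (-1.02), and Gins3, part of the replicative helicase (-0.95). In the direct comparison they were Melk (at least 1.17-fold lower in Trsp-Ins1KO), Ndc80 (-2.22), Shcbp1 (at least 1.61-fold lower), E2f8 (at least 1.54-fold lower) and Prim2, for which no fold can be given.

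Of 10 CDK inhibitors and pocket proteins, 2 rose and 1 fell in Trsp-RIPKO and 4 rose and 3 fell in Trsp-Ins1KO islets. The Trsp-RIPKO counts are near or below the 18.9% and 17.5% of all genes, and the Trsp-Ins1KO counts stand beside 23.0% of all genes each way. Cdkn1a, the inhibitor p21, read 0.10 and 0.10 in TrspFF islets, against 0.58 and 0.55 in Trsp-RIPKO islets and 1.45 and 1.50 in Trsp-Ins1KO islets. It rose by 0.46 (SE 0.064, adjusted p = 0.0099) and by 1.37 (SE 0.064, adjusted p = 0.00068), and the lines differed by 0.91 (adjusted p = 0.0014). Cdkn2b, an inhibitor of Cdk4 and Cdk6, was at -0.71 and -0.65, -0.59 and -0.80, and 0.15 and 0.16, and rose by 0.83 in Trsp-Ins1KO islets (adjusted p = 0.0033). Cdkn2c, of the same family, rose by 0.66 in Trsp-RIPKO and by 0.39 in Trsp-Ins1KO islets. Cdkn1b fell by 0.33 and Cdkn1c by 0.53 in Trsp-Ins1KO islets, with -0.25 and -0.33 in Trsp-RIPKO, which did not pass. Of the pocket proteins that hold E2F, Rb1 fell by 0.40 and by 0.31 in the lines, and Rbl2 rose by 0.62 in Trsp-Ins1KO islets.

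Markers of the other cells that an islet preparation can hold differed between the groups, some in the direction of the members and some not. The summed level of 11 tested fibroblast and stellate markers was 3.86 and 3.90 in TrspFF islets, against 4.51 and 4.50 in Trsp-RIPKO islets and 2.66 and 2.69 in Trsp-Ins1KO islets, in log2 units, above TrspFF in Trsp-RIPKO as for the mitosis genes, and far below it in Trsp-Ins1KO. For 13 acinar markers it was 4.21 and 4.28, 4.94 and 5.10, and 4.81 and 4.73. For 9 endothelial markers it was 5.45 and 5.49, 5.85 and 5.84, and 6.33 and 6.42, highest in Trsp-Ins1KO. For 3 tested T- and B-cell markers it was 2.90 and 2.76, 3.60 and 3.37, and 3.02 and 3.03, and Cd3g, Cd8a, Cd79a, Cd79b and Ms4a1 were well above background on no array. For 5 intestinal epithelial markers it was 2.84 and 2.79, 3.20 and 3.19, and 3.19 and 3.12. Fabp1, Fabp2 and Lct of that list were well above background on the Trsp-RIPKO arrays and on no TrspFF array, Fabp1 also on both Trsp-Ins1KO arrays, and Cdx1, Cdx2 and Lgr5 on no array. Of the hepatocyte list, Alb, the albumin gene, was well above background on the Trsp-Ins1KO arrays alone and at least 17.2-fold higher there than in TrspFF islets (adjusted p = 0.0020). Beta-cell markers summed to 11.68 and 11.84, 11.82 and 11.92, and 12.53 and 12.66, highest in Trsp-Ins1KO, a sum led by Ins1, Ins2 and Iapp. Of the 10, 6 were called higher and 2 lower in Trsp-Ins1KO against TrspFF, the latter being Slc2a2 (-0.71) and Slc30a8 (-0.75). In Trsp-RIPKO 0 were called higher and 4 lower. The part of these cells in the results was not tested.

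**Figure D5:**
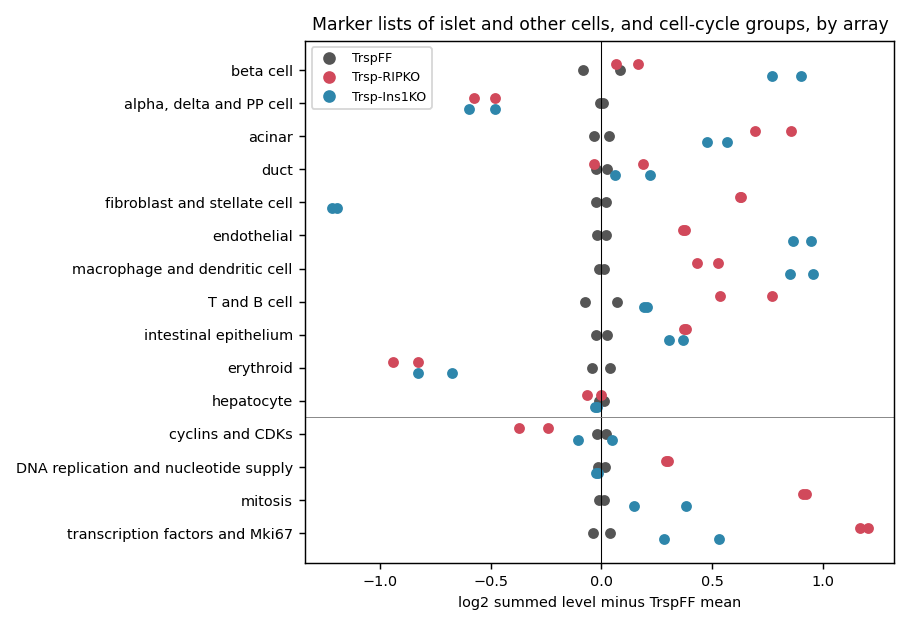
Summed level of each marker list and of the tested cell-cycle genes of each role on each array, in log2 units minus the TrspFF mean, with 1 point an array. The mitosis points of Trsp-RIPKO lie to the right of those of the other groups, as do the fibroblast and acinar points of Trsp-RIPKO.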

How the data were processed

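Total RNA of islets was labelled with Cy3 by a low-input Agilent kit, per the labels' protocols, and 6 arrays were read with Feature Extraction 10.7.3.1, per the file headers. The deposited scanner files hold each spot's processed intensity, already background-subtracted by that software, and flags (0 or 1) for signals well above background, saturation and outliers. A further table from the authors gives log2 values, of unstated scaling, for 39485 probes. After centring each probe, its columns correlated at 1.0 with log2 processed intensity relative to the 75th percentile.

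Here log2 processed intensity minus each array's 75th percentile was used. Control and outlier spots were left out, spots of a probe averaged, and a gene represented by its entering probe of highest mean. Probes were named through a RefSeq table of GRCm38.p6 (66.1% of 39429). The test was limma 3.58.1 in R 4.3.3, fitted to all 6 arrays, two-sided, with 2.1 prior and 5.1 total degrees of freedom. The fit was tested on simulated data. No label says whether the 2 arrays of a genotype stand for different mice, so the p-values reflect the spread among these arrays alone, which may be technical, and 2 arrays a group limit the precision. The normexp alternative used median in place of mean spot intensity. Other alternatives were quantile and median scaling, other probe filters, mean over probes, another variance model, a replicate block, left-out arrays and the authors' table. Named genes were Mki67, Top2a, in each role group the called genes with the 6 largest differences in each contrast, D-type cyclins and genes called in opposite directions, and from the other lists the 5 largest called and called inhibitors. The members and lists were chosen with earlier results of these data known. Python 3.11.15, pandas 2.3.3, numpy 2.4.6 and matplotlib 3.10.9 were also used.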

Additional observations from a re-analysis of the deposited data

Results flagged for a closer look

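The difference between the knockout lines passed the limma test for 22 of the 37 tested genes, which is what singles them out here. On the log2 scale, Trsp-Ins1KO minus Trsp-RIPKO was -1.42 for Ccna2, -0.98 for Ccnb2, -1.02 for Cdk1, -1.63 for Mki67, -1.33 for Tk1, -0.65 for Cdt1, -0.54 for Rrm2 and -0.45 for Pcna. Among mitosis genes it was -0.85 for Birc5, -0.71 for Cdc20, -0.68 for Kif20a, -0.82 for Prc1 and -0.74 for Ube2c. The fitted values of Top2a (-1.82), Bub1 (-1.24), Nusap1 (-1.05), Cenpa (-0.54) and Tyms (-0.94) rest on probes that were well above background on no Trsp-Ins1KO array. It was 0.86 for Ccnd1, 0.34 for Ccnd3, 0.23 for Cdk4 and 0.76 for Tpx2.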

How the results depend on the processing

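Of the 23 genes higher in Trsp-RIPKO than in TrspFF, 5 passed in all alternatives that they entered, apart from the table's own column names. Of these 5, Tk1 and Top2a did not enter under the filter for probes above background on all 6 arrays. Top2a had also entered the main test through Trsp-RIPKO alone. All alternatives but those names were passed by 7 of the 10 higher in Trsp-Ins1KO, and by 1 of 4 higher and 3 of 18 lower in the direct comparison. Leaving out 1 array gave 6 to 25 higher and 0 to 1 lower for Trsp-RIPKO against TrspFF, 7 to 14 and 0 to 6 for Trsp-Ins1KO against TrspFF, and 2 to 3 and 8 to 19 for the direct comparison. For Trsp-RIPKO against TrspFF, 14 were higher with no filter on dim probes, and the 1 lower became 3 with normexp, 4 with median scaling, 0 with no filter, 2 with the mean over probes, 3 with a trended robust fit and 4 under the table's own names. For Trsp-Ins1KO against TrspFF, 27 were higher with normexp and 3 under the table's own names, and 5 were lower with median scaling and 10 under those names. In the direct comparison 11 were higher with normexp, 2 with the mean over probes, 2 with only the compared groups in the fit and 1 under the table's own names, and 9 were lower with normexp. The replicate numbers were fitted as a block, with counts of 23 and 1, 10 and 3, and 3 and 18. The block ended the calls of Aurka in Trsp-RIPKO (adjusted p = 0.069), Cdt1 in Trsp-Ins1KO against TrspFF (0.060) and Cdk4 between the lines (0.062), and brought in Tyms in Trsp-RIPKO (0.038) and Cdc20 in Trsp-Ins1KO against TrspFF (0.017). Deviations of equally numbered arrays correlated at 0.13, 0.15 and 0.11, but no label pairs them and each contrast has 2 pairs. The slide as a random block was not run as a separate result. Each group lay wholly on 1 slide, so the correlation was set to 0 by the design and the fit equalled the main one. A slide effect was therefore not assessed.

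With normexp, Trsp-Ins1KO against TrspFF turned to 0.55 for Bub1, 0.30 for Ccna2, 0.37 for Ccnb2, 0.48 for Cdk1, -0.20 for Cdk4, 0.55 for Cenpa, 0.41 for Kif20a, 0.52 for Nusap1, 0.42 for Tk1, 0.53 for Top2a and 0.40 for Tyms. The direct comparison turned to 0.32 for Bub1, 0.23 for Cdk1, 0.42 for Cenpa, 0.19 for Kif20a, 0.15 for Nusap1, 0.19 for Top2a, 0.30 for Tyms and 0.015 for Ube2c. The cause was not tested.

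Under the table's own column names, Trsp-Ins1KO against TrspFF turned to -0.60 for Ccnd1, 0.41 for Ccnd2, -0.42 for Ccnd3, -0.54 for Cdt1, -0.64 for E2f1, -0.72 for Foxm1, -0.66 for Mcm2, -1.22 for Mcm3, -0.59 for Mcm5, 0.40 for Pcna, -1.31 for Tpx2, 0.62 for Tyms and -1.15 for Uhrf1. The direct comparison turned to -0.082 for Ccnd3, -0.49 for E2f1, -1.13 for Mcm3 and -0.55 for Tpx2, and Trsp-RIPKO against TrspFF to -0.34 for Ccnd3, -0.15 for E2f1, -0.10 for Mcm3 and -0.76 for Tpx2. With the mean over probes, Mki67 turned to -0.26 in Trsp-Ins1KO against TrspFF and Tpx2 to -0.36 in the direct comparison, and without Trsp-Ins1KO replicate 2, Cdk1 turned to 0.33 against TrspFF, its lowest value with an array left out being -0.40. Signal over background limits the 7 members that were not tested and the bounds of the dim ones.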
